A study of Mus musculus with 18 samples.

Results

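The proneural and neurogenic transcription factors described here are 9 genes: the neurogenins Neurog1, Neurog2 and Neurog3, the atonal relative Atoh1, the NeuroD genes Neurod1, Neurod2 and Neurod4, and the zinc finger genes Insm1 and Myt1. They were taken by name from the 27179 genes of the count tables. The rule is a list of names, which was drawn up with earlier results of these data known. RNA was measured in 18 libraries of mouse embryonic stem cells (ESCs) that differentiate as embryoid bodies into spinal motor neurons and interneurons in response to retinoic acid (RA, 1 µM) and the Hedgehog agonist SAG (0.5 µM). The 6 groups held 3 libraries each, which the study describes as independent differentiations. The day2 group consisted of progenitors of the Ainv15(iCre) line after 2 days of RA and SAG without doxycycline (Dox). The control group consisted of day 4 neurons of the Ainv15(iFlag.Hoxc6) line that never received Dox. The iHoxc6, iHoxc8, iHoxc9 and iHoxc10 neurons were collected at day 4 from lines Ainv15(iFlag.Hoxc6), Ainv15(iFlag.Hoxc8), Ainv15(iFlag.Hoxc9) and Ainv15(iFlag.Hoxc10), after 48 h of Dox at 3 µg/ml from day 2 onwards. Each line carries 1 Flag-tagged Hox transgene in the same inducible locus, and the share of cells that induced it was not measured here. No Dox-treated line without a Hox transgene was analysed here.

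Proneural factors are basic helix-loop-helix (bHLH) proteins that pair with E proteins, bind the E-box and push a neural progenitor to leave the cell cycle and become a neuron. Neurogenins act early, in progenitors that are about to divide for the last time, and they switch on the NeuroD genes and the Notch ligands, which keep neighbouring cells in the progenitor state. In the ventral spinal cord Neurog2 works together with Olig2 in motor neuron progenitors, Atoh1 belongs to the dorsal-most interneuron progenitors, and Neurog3 is best known from the endocrine pancreas, although it is also found in the ventral spinal cord. Insm1 is a zinc finger repressor switched on in cells that are turning into neurons or endocrine cells, and Myt1 is a zinc finger protein of newborn and young neurons. Because most of these genes are known mainly from short transitional states, their level in bulk RNA depends on how many cells pass through such a state. Fewer cells of a type and less RNA per cell cannot be told apart in these libraries.

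The sequences before the start sites of Neurog1 and Neurog3 are shown because these neurogenins moved in opposite directions after induction of Hoxc9 and of Hoxc10. Each is the 250 bases before the start site, 5′ to 3′ on the strand of the gene, as given by RefSeq for GRCm38.p6. Capitals mark the E-box CANNTG and the letters TTTAT, the motif that the study found at sites bound by HOXC9 and HOXC10, read on either strand and thus also as ATAAA.
Neurog1, chr13:56252181-56252430, minus strand: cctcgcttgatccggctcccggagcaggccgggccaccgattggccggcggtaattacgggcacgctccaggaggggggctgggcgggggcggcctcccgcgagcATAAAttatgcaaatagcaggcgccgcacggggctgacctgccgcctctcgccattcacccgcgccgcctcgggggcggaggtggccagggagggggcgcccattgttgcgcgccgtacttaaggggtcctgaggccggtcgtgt
Neurog3, chr10:62132840-62133089, plus strand: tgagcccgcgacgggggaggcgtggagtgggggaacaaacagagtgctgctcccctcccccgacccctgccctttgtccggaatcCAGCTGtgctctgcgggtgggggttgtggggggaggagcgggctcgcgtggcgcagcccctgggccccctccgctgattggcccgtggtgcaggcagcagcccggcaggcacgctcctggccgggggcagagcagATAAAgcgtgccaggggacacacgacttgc
The Neurog1 window held no E-box and 1 ATAAA that began 145 bases before the start. The Neurog3 window held the E-box CAGCTG at 165 bases and ATAAA at 30 bases before the start. The Neurod2 window held 3 E-boxes and 4 matches to TTTAT, and the Neurod1 window held 1 E-box and no TTTAT. Of the Myt1 windows, that from 181766779 held 2 of each, that from 181796057 held 1 of each, and that from 181763082 held neither. The windows of Neurog2, Neurod4 and Atoh1 held neither set of letters. Among 27025 mouse promoter windows of the same length, 66.0% held at least 1 CANNTG and 38.1% held TTTAT on either strand, so these matches are common, and a match describes letters and no bound site. Windows were found for 8 of the 9 genes.

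The libraries held 24498630 to 33168533 counts, and 3 counts, the limit that a count of 0 allows, correspond to 0.0904 to 0.122 CPM (counts scaled to the library's total). Levels below are CPM after TMM scaling, as mean ± SD of 3 libraries, and a difference was called at an adjusted p under 0.01 in edgeR's quasi-likelihood test over 20944 genes. Each induced Hox gene was at 213 to 532 CPM in its own line, and at 0 to 49.4 CPM elsewhere, the top of that range being Hoxc6 in iHoxc10. The code that opens each sample's description is shared by control and iHoxc6 and by iHoxc9 and iHoxc10, while day2 and iHoxc8 have a code of their own. In the other comparisons the code, the line and the induced gene cannot be told apart, nor can the stage in those against day2. Between iHoxc9 and iHoxc10 the line and the induced gene cannot be told apart either. Dox and the induced gene cannot be told apart in any comparison of an iHox group with control or day2. As a check of the labelled stages, the sum of 9 neuronal markers was 303 to 619 CPM at day2 and 5658 to 8324 CPM at day 4, while the sum of the 6 cycling markers was 2201 to 2767 CPM at day2 and 490.3 to 1141 CPM at day 4. Control replicate 2 stood apart from its group, with a sum of the 8 neural progenitor markers of 1621 CPM against 929.7 and 1047 CPM and a cycling sum of 1141 CPM against 671 and 767 CPM. It also had the highest Neurog1, Neurog2, Neurod4 and Insm1 of the 3 control libraries, and the part of this difference in the results was not tested, so values without it are given where they change a call.

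**Figure D1:**
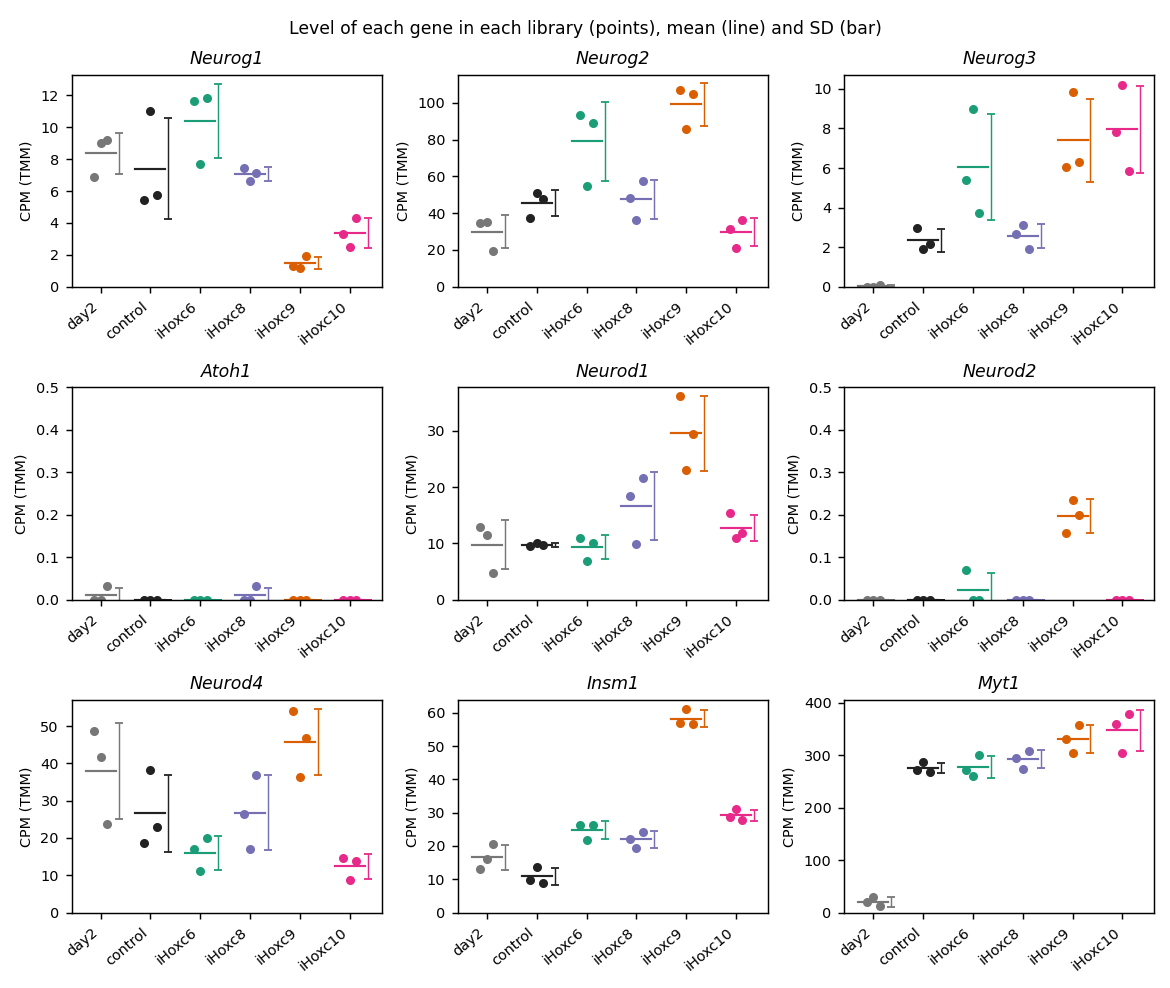
Level of each of the 9 genes in CPM (linear axis from 0) in the 6 groups; points are libraries in the order of their replicate numbers, lines are means and side bars are SDs of 3 libraries. Myt1 rises from 20.4 CPM at day2 to 275 CPM or more in all day 4 groups, Neurog1 is lowest in iHoxc9, Insm1 is highest in iHoxc9, and Atoh1 is at or next to 0.

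Neurog2, the main neurogenin of motor neuron progenitors, was the most abundant of the 3 neurogenins in every library, per kilobase of exon. It was at 34.9, 35.3 and 19.6 CPM at day2 and at 37.5, 51.0 and 47.9 CPM in control neurons. In iHoxc9 neurons it was at 106.7, 85.8 and 105 CPM and in iHoxc6 neurons at 93.6, 54.5 and 89.2 CPM. The iHoxc8 libraries, at 48.3, 36.5 and 57.6 CPM, overlapped control, whereas the iHoxc10 libraries, at 31.6, 21.3 and 36.1 CPM, all lay below control and overlapped day2. Against control, Neurog2 rose in iHoxc9 with a log2 fold change of 1.13 (SE 0.24, adjusted p = 0.00127), a call that was lost without control replicate 1 (adjusted p = 0.011). The difference of iHoxc6 from control, made within 1 line, was 0.80 (SE 0.23, adjusted p = 0.061) and that of iHoxc10 was -0.62 (SE 0.24, adjusted p = 0.0612), and neither passed the test. Against day2, Neurog2 rose in iHoxc6 (log2 fold change 1.40, SE 0.24) and in iHoxc9 (1.73, SE 0.24), with adjusted p of 2.5e-05 and 1.72e-06.

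Neurog1, a close relative of Neurog2 that is used mainly by sensory and some spinal interneuron lineages, fell in iHoxc9, where Neurog2 rose, and in iHoxc10. Its level was 6.91, 9.02 and 9.21 CPM at day2, 5.46, 11.05 and 5.73 CPM in control, 11.6, 7.72 and 11.8 CPM in iHoxc6 and 7.45, 6.61 and 7.13 CPM in iHoxc8. These 4 groups followed each other in the order iHoxc6, day2, control and iHoxc8, each overlapping the next. The iHoxc10 libraries lay apart at 3.29, 2.51 and 4.33 CPM, and the iHoxc9 libraries lay below these at 1.33, 1.21 and 1.91 CPM. Neurog1 fell by 2.33 on the log2 scale in iHoxc9 against control (SE 0.28, adjusted p = 2.53e-06), a 5.02-fold lower fitted level, and by 1.13 in iHoxc10 against control (SE 0.26, adjusted p = 0.00283). Without control replicate 2 the first difference was -1.93 with an adjusted p of 7.28e-06, and the second was -0.73 with an adjusted p of 0.0251, so the call for iHoxc10 was lost. It was also lost without iHoxc10 replicate 1 (adjusted p = 0.0156) or replicate 2 (adjusted p = 0.02). Against day2, which does not share the control libraries, Neurog1 fell by 2.51 in iHoxc9 (adjusted p = 8.14e-08) and by 1.31 in iHoxc10 (adjusted p = 0.000143).

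Neurog3 was close to absent in the progenitor libraries and was detected in every day 4 library. The day2 libraries held 0, 0 and 3 reads, or 0.0937 CPM in the one library with reads. In control neurons it was at 2.99, 1.89 and 2.17 CPM and in iHoxc8 at 2.66, 3.11 and 1.91 CPM. The remaining lines lay higher, at 5.40, 8.99 and 3.75 CPM in iHoxc6, 6.06, 9.83 and 6.29 CPM in iHoxc9, and 7.84, 10.2 and 5.83 CPM in iHoxc10. The summed counts gave a ratio to day2 of 73.0 for control neurons (exact 95% counting interval 24.6 to 357), 77.9 for iHoxc8 (26.4 to 381), 188 for iHoxc6 (64.1 to 916), 234 for iHoxc9 (79.6 to 1140) and 246 for iHoxc10 (83.8 to 1200.0). These intervals cover counting error alone, and all 5 ratios share the same 3 day2 reads. Against control, Neurog3 rose in iHoxc9 by a log2 fold change of 1.65 (SE 0.33, adjusted p = 0.000736) and in iHoxc10 by 1.76 (SE 0.33, adjusted p = 0.000432). The iHoxc6 libraries all lay above the control libraries too, with a log2 fold change of 1.36 (SE 0.33, adjusted p = 0.0274) that did not pass the test in edgeR and passed it in DESeq2 (adjusted p = 0.0044). GENCODE places Fam241b on the opposite strand over Neurog3, and whether the counting used strand is not given in the sources used here, so reads of that partner cannot be told apart from Neurog3.

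Markers of the endocrine pancreas, where Neurog3 is best known, were measured beside it. Of 9 pancreatic and enteroendocrine markers, the defining genes Ins1, Ins2 and Gcg had no read in any day 4 library, Pdx1 had none in the 4 iHox groups and was at 0.0128 CPM in control, and Pax4 stayed at 0.0125 to 0.0947 CPM in the day 4 means. The V3 interneuron domain is a ventral site of Neurog3 expression, and Sim1, which marks V3 neurons, had group means of 17.1 CPM in iHoxc9 and 5.31 in iHoxc10, against 0.461 in control, 0.595 in iHoxc6 and 0.95 in iHoxc8. Nkx2-2, a marker of V3 progenitors, was at 29.5 and 19.0 CPM in these lines and at 8.54 CPM in control neurons. The other markers of this list were lower there than in control: Nkx2-9 was at 0.324 and 0.382 CPM against 3.31 CPM, Shh at 5.13 and 22.4 CPM against 27.2 CPM, and Foxa2 at 16.8 and 18.7 CPM against 22.2 CPM. The sum over the whole list of 5 floor plate and V3 markers overlapped between control (54.4 to 66.3 CPM), iHoxc9 (56.8 to 82.6 CPM) and iHoxc10 (54.1 to 85.3 CPM), and it was higher in iHoxc6 (71.7 to 114 CPM) and iHoxc8 (72.9 to 99.2 CPM) than in control. The part of these cells in the Neurog3 levels was not tested.

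The make-up of the neurogenins is best read per kilobase of exon, which allows a comparison between genes. The summed level of the 3 genes was highest in iHoxc9 (49.8 ± 4.09 CPM per kilobase) and iHoxc6 (45.3 ± 9.52), followed by iHoxc8 (27.1 ± 4.57), control (26.2 ± 4.37), iHoxc10 (20.1 ± 2.62) and day2 (18.4 ± 3.63). Neurog1 made up 28.04% ± 9.06 of that sum at day2, 16.4% ± 4.45 in control neurons, 15.7% ± 2.08 with Hoxc8, 13.6% ± 0.563 with Hoxc6, 9.87% ± 1.51 with Hoxc10 and 1.76% ± 0.366 with Hoxc9. Neurog3 made up 0.13% ± 0.226 at day2, 5.599% ± 2.31 in control, 5.92% ± 2.36 in iHoxc8, 8.78% ± 5.97 in iHoxc6 and 9.05% ± 3.44 in iHoxc9. It made up 24.6% ± 10.1 in iHoxc10, where single libraries ranged from 15.7% to 35.6%, beside 15.6% in the highest iHoxc6 library. The Neurog3 level itself did not pass between iHoxc9 and iHoxc10 (adjusted p = 0.927 in edgeR), whereas Neurog2 was at 99.2 and 29.6 CPM. The ratio of Neurog2 to Neurog1 was 5.01 ± 1.43 in control, 6.66 ± 0.519 in iHoxc10 and 52.1 ± 9.68 in iHoxc9, where its lowest library, at 41.6, lay above the highest control library, at 6.33. Between the lines with the highest neurogenin sums, iHoxc6 and iHoxc9, the libraries overlapped in the sum and lay apart in the share of Neurog1.

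**Figure D2:**
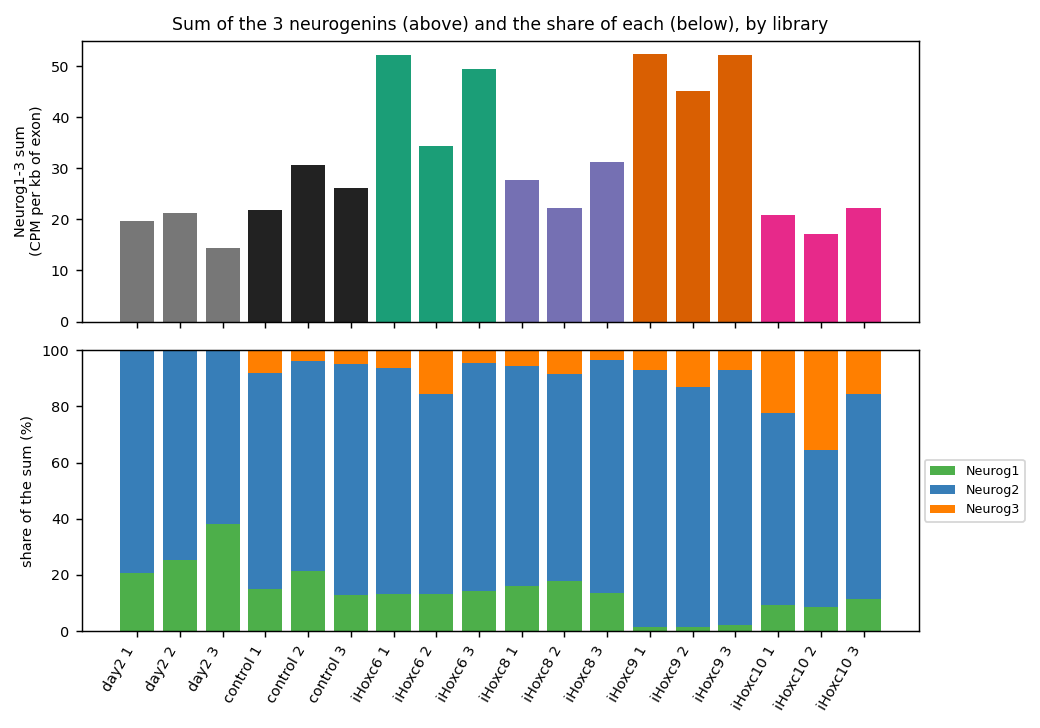
Neurogenin level per kilobase of exon in each of the 18 libraries (above, summed CPM per kilobase, axis from 0) and the share of Neurog1, Neurog2 and Neurog3 in that sum (below, percent). The Neurog1 share is 1.51% to 2.18% in the iHoxc9 libraries against 12.96% to 21.4% in control. The Neurog3 share is largest in iHoxc10, beside a lower Neurog2 level than in iHoxc9.

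Atoh1, which marks the progenitors of the dorsal-most spinal interneurons, was at 0 reads in 16 of the 18 libraries and at 1 read in day2 replicate 3 and in iHoxc8 replicate 3. All groups lay under the 3-count limit, so a level above 0 was not detectable at this depth and no fold is given. The dorsal spinal cord markers were low as well: the sum of the 7 genes Pax3, Pax7, Lhx2, Lhx9, Barhl1, Barhl2 and Lmx1b was 2.33 to 3.47 CPM at day2 and 0.469 to 2.72 CPM at day 4. Lmx1b was the largest part of it in the day 4 groups, and Barhl1 and Lhx9 had no read in 3 and 4 of the 6 groups.

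Neurod1, a bHLH factor downstream of the neurogenins, was at 9.48, 10.01 and 9.66 CPM in the control libraries. It was at 12.97, 11.6 and 4.81 CPM at day2 and at 11.0, 6.91 and 10.04 CPM in iHoxc6. The iHoxc9 libraries, at 36.2, 23.0 and 29.5 CPM, all lay above every other library, the next being iHoxc8 at 18.5, 9.95 and 21.6 CPM and iHoxc10 at 15.4, 10.9 and 11.8 CPM. Neurod1 rose in iHoxc9 against control with a log2 fold change of 1.60 (SE 0.29, adjusted p = 0.000349) and against day2 with 1.60 (SE 0.29, adjusted p = 6.09e-05). In iHoxc8 against control the value was 0.78 (SE 0.29, adjusted p = 0.0995), and the groups overlapped through iHoxc8 replicate 2. GENCODE lists Cerkl on the same strand and Gm26755 on the opposite strand over Neurod1, so some of its reads may be shared with these genes.

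Neurod4, which acts with Neurod1 in newborn neurons, was already present in progenitors, at 48.7, 41.8 and 23.8 CPM at day2, and it fell from that level in iHoxc6 and iHoxc10. Control neurons held 18.7, 38.2 and 22.8 CPM, with replicate 2 far above the others, and iHoxc8 neurons 26.5, 17.0 and 37.0 CPM. The highest day 4 level was 54.1, 36.3 and 46.9 CPM in iHoxc9, and the lowest were 17.1, 11.1 and 19.9 CPM in iHoxc6 and 14.5, 8.63 and 13.9 CPM in iHoxc10. Against day2, Neurod4 fell by 1.25 on the log2 scale in iHoxc6 (SE 0.31, adjusted p = 0.00125) and by 1.62 in iHoxc10 (SE 0.31, adjusted p = 8.92e-05), and the call for iHoxc6 was lost without iHoxc6 replicate 2 (adjusted p = 0.0115) or day2 replicate 1 (adjusted p = 0.01). Against control, no difference passed: it was 0.78 in iHoxc9 (SE 0.30, adjusted p = 0.0625) and -1.10 in iHoxc10 (SE 0.31, adjusted p = 0.0111). Without control replicate 2 these were 1.14 with an adjusted p of 0.00865, past the threshold, and -0.75 with an adjusted p of 0.0777. The iHoxc10 difference passed in 4 of 13 alternative fits, DESeq2 among them (adjusted p = 0.0041). The ratio of Neurod4 to Neurod1 per kilobase was 3.35 ± 0.594 at day2 and 2.22 ± 0.791 in control, and after induction it was 1.40 ± 0.193 with Hoxc6, 1.32 ± 0.127 with Hoxc8, 1.27 ± 0.0428 with Hoxc9 and 0.793 ± 0.161 with Hoxc10. The iHoxc10 libraries, at 0.645 to 0.964, lay below all other libraries in this ratio, and the day2 and control ranges overlapped. The iHoxc6 range (1.27 to 1.62) also met the control range (1.61 to 3.11), the top of which was control replicate 2.

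Neurod2, a NeuroD factor of more mature neurons, was found in iHoxc9 alone beyond the 3-count limit. It had 4, 8 and 5 reads in the iHoxc9 libraries, 2 reads in iHoxc6 replicate 1 and none in the 14 other libraries. With 3 counts over each group as the floor, the 17 reads as counted give bounds of 5.61-fold over control and 6.14-fold over day2. These bounds leave out the counting error of the 17 reads. Against the 2 reads of iHoxc6 the ratio was 9.0 (exact 95% counting interval 2.14 to 80.3). The test against control lay at the threshold (adjusted p = 0.00997) and was not passed with the replicate block (adjusted p = 0.0303). It was passed in 2 of 11 alternative fits, so the level rather than the call is the measurement here.

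Insm1 was called higher than control in all 4 induced lines, the one member of which this holds. Its level was 13.1, 16.0 and 20.5 CPM at day2 and 9.83, 13.7 and 8.98 CPM in control. After induction it was at 56.8, 61.1 and 56.6 CPM in iHoxc9, 28.7, 31.1 and 27.7 CPM in iHoxc10, 26.3, 21.7 and 26.4 CPM in iHoxc6 and 22.2, 19.4 and 24.3 CPM in iHoxc8. All libraries of the 4 iHox groups lay above all control libraries, and the libraries of iHoxc9, iHoxc10 and iHoxc6, in this order, did not overlap, although iHoxc10 and iHoxc6 did not differ past the threshold (adjusted p = 0.354). Against control, which is shared by the 4 comparisons, the log2 fold change was 2.43 in iHoxc9 (SE 0.17, adjusted p = 1e-09), 1.43 in iHoxc10 (SE 0.17, adjusted p = 3.41e-06), 1.19 in iHoxc6 (SE 0.17, adjusted p = 0.000316) and 1.02 in iHoxc8 (SE 0.17, adjusted p = 0.00106). The iHoxc8 call was lost without control replicate 3 (adjusted p = 0.0156) or iHoxc8 replicate 3 (adjusted p = 0.0133). Insm1 was the member called between iHoxc6 and control, a comparison within 1 line and 1 description code. Only iHoxc6 received Dox there, so Dox and the induced gene cannot be told apart. Against day2, it fell by 0.61 in control (adjusted p = 0.00386), with 1 control library inside the day2 range, and rose by 1.81 in iHoxc9 (SE 0.17, adjusted p = 4.13e-09) and by 0.82 in iHoxc10 (SE 0.17, adjusted p = 0.000186). The fall in control was lost without day2 replicate 3 (adjusted p = 0.0302), control replicate 1 (adjusted p = 0.023) or control replicate 3 (adjusted p = 0.0245). The rise in iHoxc6 against day2 (0.58, SE 0.17, adjusted p = 0.00472) was lost in 7 of 13 alternative fits.

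Myt1 separated progenitors from neurons, and no difference among the neurons passed the test in the fit of all libraries. The day2 libraries held 19.8, 29.9 and 11.6 CPM. The 15 day 4 libraries ranged from 259.5 to 378 CPM, with group means from 275 ± 9.40 in control over 277 ± 21.1 (iHoxc6), 292 ± 17.6 (iHoxc8) and 330.3 ± 26.3 (iHoxc9) to 347 ± 38.6 (iHoxc10). The log2 fold change against day2 was 3.75 in control (SE 0.23, adjusted p = 3.62e-12) and 3.76 to 4.09 in the iHox groups (SE 0.23). All iHoxc9 and iHoxc10 libraries lay above all control libraries, yet the differences did not pass the test (adjusted p = 0.385 and 0.257). The sum of the 9 neuronal markers was 5658 to 5967 CPM in control, 5955 to 6025 CPM in iHoxc6, 6134 to 7170 CPM in iHoxc9, 6353 to 7196 CPM in iHoxc8 and 7351 to 8324 CPM in iHoxc10, and its part in the Myt1 levels was not tested. RefSeq places the gene Gm18895 within Myt1.

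Between progenitors and control neurons, 3 of the 9 genes were called, 2 higher (Neurog3 and Myt1) and 1 lower (Insm1), while 42.4% of all genes tested were called in that comparison, 21.2% higher and 21.2% lower. In iHoxc6 against day2 the count was 5 of 9, 4 higher (Neurog2, Neurog3, Insm1 and Myt1) and 1 lower (Neurod4), beside 46.6% of all genes (22.7% higher and 23.9% lower). In iHoxc8 it was 2 of 9, both higher (Neurog3 and Myt1), beside 44.6% of all genes (22.3% in each direction). In iHoxc9 it was 7 of 9, 6 higher (Neurog2, Neurog3, Neurod1, Neurod2, Insm1 and Myt1) and 1 lower (Neurog1), beside 46.7% (23.4% higher and 23.3% lower). In iHoxc10 it was 5 of 9, 3 higher (Neurog3, Insm1 and Myt1) and 2 lower (Neurog1 and Neurod4), beside 50.2% (24.1% higher and 26.1% lower). Neurog3 and Myt1 were called in all 5 comparisons, which share the day2 libraries. They were also the genes past a log2 fold change of 2 in control, iHoxc6, iHoxc8 and iHoxc10, where 12.6%, 14.8%, 14.2% and 18.7% of all genes passed it. In iHoxc9, where 15.6% of all genes did, Neurod2 and Neurog1 passed it as well. Neurod2 rests there on 17 reads against none at day2, and its call held in 9 of 12 alternative fits. Without day2 replicate 1 the count in iHoxc6 was 3.

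Against control, 1 of 9 genes (Insm1, higher) was called in iHoxc6, beside 0.587% of all genes (0.363% higher and 0.224% lower), and the same gene alone in iHoxc8, beside 2.12% (1.03% higher and 1.09% lower). The iHoxc8 count was 0 without control replicate 3 or iHoxc8 replicate 3. In iHoxc9, 6 of 9 were called, 5 higher (Neurog2, Neurog3, Neurod1, Neurod2 and Insm1) and 1 lower (Neurog1), beside 14.1% of all genes (6.95% higher and 7.13% lower). In iHoxc10, 3 of 9 were called, 2 higher (Neurog3 and Insm1) and 1 lower (Neurog1), beside 14.4% (6.67% higher and 7.75% lower). Past a log2 fold change of 2 were Neurog1, Neurod2 and Insm1 in iHoxc9, beside 2.70% of all genes, and no member in iHoxc6, iHoxc8 and iHoxc10, where 0.115%, 0.220% and 1.48% of all genes passed it. The iHoxc9 count ran from 4 to 6 when single libraries were left out, with 4 without control replicate 1. Its Neurod2 call rests on 17 reads against none and held in 2 of 11 alternative fits. All 4 comparisons share the 3 control libraries. The sum of the 5 motor neuron markers was 493 to 523 CPM in control, 254 to 274 CPM in iHoxc9, 377.4 to 428 CPM in iHoxc6, 409 to 440.1 CPM in iHoxc8 and 477 to 536 CPM in iHoxc10, and its part in these counts was not tested.

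**Figure D3:**
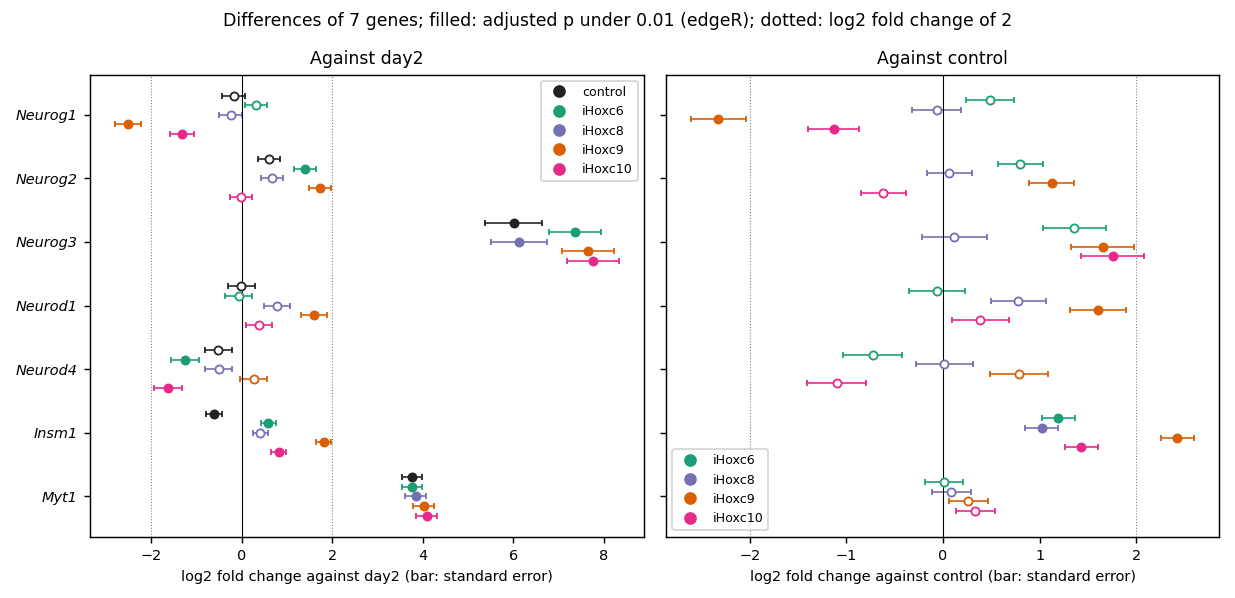
Fitted log2 fold change with its standard error for 7 genes, against day2 (left) and against control (right); filled points have an adjusted p under 0.01 in edgeR, and dotted lines mark a log2 fold change of 2. On the right, iHoxc9 lies at -2.33 for Neurog1 and at 2.43 for Insm1, and no Myt1 point is filled; the Neurog3 points on the left rest on 3 day2 reads.

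The iHoxc9 and iHoxc10 neurons, which carry posterior group Hox genes and share a description code, differed in 5 of the 9 genes, beside 4.99% of all genes (2.60% higher and 2.40% lower in iHoxc9). No member passed a log2 fold change of 2, which 1.31% of all genes did. Higher in iHoxc9 were Neurog2 (log2 fold change 1.74, SE 0.24, adjusted p = 2.72e-05), Neurod4 (1.89, SE 0.31, adjusted p = 0.000237), Neurod1 (1.22, SE 0.29, adjusted p = 0.00766) and Insm1 (1.00 on the same scale, SE 0.16, adjusted p = 0.000237). Neurog1 was lower in iHoxc9 by 1.19 (log2 fold change -1.19, SE 0.29, adjusted p = 0.0091). Neurog2, Neurod4 and Insm1 were called in all 14 alternative fits. The calls for Neurog1 and Neurod1 held in 7 and 8 of 14, with adjusted p up to 0.0653 and 0.0475. Same-numbered libraries of these lines deviated from their group means together, and with the replicate block Neurog1 was no longer called (adjusted p = 0.0123). Neurog3 and Myt1 did not pass (adjusted p = 0.927 and 0.921). In the same libraries the cycling marker sum was 773 to 849 CPM in iHoxc9 and 490.3 to 605 CPM in iHoxc10, the neural progenitor sum was 1502 to 1618 CPM and 1136 to 1350.0 CPM, and the motor neuron sum was 254 to 274 CPM and 477 to 536 CPM. The part of these cell states in the 5 differences was not tested.

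Between iHoxc6 and iHoxc9, 4 members were called beside 11.7% of all genes (3.68% higher and 8.02% lower in iHoxc6): Neurog1 was higher in iHoxc6 (log2 fold change 2.82, SE 0.28, adjusted p = 2.08e-07), and Neurod1 (-1.67, SE 0.29), Neurod4 (-1.51, SE 0.31) and Insm1 (-1.23, SE 0.17) were lower, with adjusted p of 0.000274, 0.00111 and 1.12e-05. Neurog1 was the member past a log2 fold change of 2 there, beside 2.49% of all genes. The cycling marker sum was 799.6 to 933 CPM in iHoxc6, and the progenitor sum 1425 to 1465 CPM, while the motor neuron sum was 377.4 to 428 CPM in iHoxc6 and 254 to 274 CPM in iHoxc9. Their part in these differences was not tested. The Neurod4 call was lost without iHoxc6 replicate 2 (adjusted p = 0.0153). Neurog2 did not pass between these lines (adjusted p = 0.357). The replicate block in a fit of these 6 libraries alone also called Neurog2 (adjusted p = 8.9e-05) and Myt1 (adjusted p = 0.00573), both lower in iHoxc6, and that fit leaves few degrees of freedom among libraries. Between iHoxc6 and iHoxc10, 2 members were called beside 11.0% of all genes (4.86% higher and 6.17% lower), Neurog1 (1.62, SE 0.26, adjusted p = 0.00018) and Neurog2 (1.42, SE 0.24, adjusted p = 0.000267), both higher in iHoxc6. Neither passed a log2 fold change of 2, beside 1.27% of all genes.

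The partners and inhibitors of bHLH factors were examined next, from lists chosen by known function, and their counts stand beside 14.1% of all genes called in iHoxc9 and 14.4% in iHoxc10 against control. Of the 3 E proteins, the obligate partners of proneural factors, Tcf12 and Tcf4 rose in iHoxc9 against control, from 97.9 to 248 CPM (log2 fold change 1.34) and from 32.0 to 70.0 CPM (1.13), and Tcf3 was at 212 against 207 CPM. No E protein was called in iHoxc6, iHoxc8 or iHoxc10, with Tcf12 in iHoxc8 nearest to the threshold (adjusted p = 0.0478). Of the 4 Id genes, whose products bind E proteins and keep bHLH pairs off DNA, Id1, Id3 and Id2 fell in iHoxc9, by 1.77, 1.08 and 0.78 on the log2 scale. In iHoxc10 Id1 fell by 2.06 and Id3 by 0.82, whereas Id4 rose from 16.3 to 55.6 CPM (1.76). Id1 was called lower in iHoxc8 too (-1.27), and no Id gene was called in iHoxc6. The median log2 fold change in iHoxc9 was 1.13 for the E proteins and -0.93 for the Id genes, beside 0 over all genes tested.

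Among 7 Hes and Hey genes, Notch-responsive repressors of proneural genes, Hes5 fell in iHoxc9, from 23.7 to 10.4 CPM (log2 fold change -1.19, adjusted p = 0.000814), and in iHoxc10, to 8.1 CPM (-1.55, adjusted p = 7.43e-05), and no other member was called in either line. Called were thus 1 of 7 genes in each line, beside 14.1% and 14.4% of all genes (7.13% and 7.75% lower). Hes1, at 14.1 CPM in control, did not pass in these lines (adjusted p = 0.23 and 0.455). The median of the list was -0.68 in iHoxc9 and -0.38 in iHoxc10, and without Hes3 and Hes7, which are under 0.1 CPM in these groups, it was -0.44 and -0.38.

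Of 15 other neural bHLH factors, 14 passed the filter, Neurod6 being without a read in the iHox libraries. In iHoxc9 2 rose and 5 fell against control, beside 6.95% of all genes higher and 7.13% lower. Olig3, a factor of dorsal and V3 progenitors, rose from 0.236 to 5.23 CPM (log2 fold change 4.44, adjusted p = 1.58e-07). Ptf1a, known from dorsal inhibitory interneurons, had 67 reads in iHoxc9 and none in control. With 3 counts as the floor this gives a bound of 22.1-fold, which leaves out the counting error of the 67 reads. Bhlhe23 (22.8 to 1.09 CPM), Ferd3l (3.42 to 0.407 CPM) and Tal1, a factor of V2b interneurons (1.45 to 0.0855 CPM), fell, as did the motor neuron progenitor genes Olig1 (14.3 to 3.19 CPM) and Olig2 (73.3 to 30.9 CPM, log2 fold change -1.25, adjusted p = 0.00163). In iHoxc10, Olig3 rose to 1.37 CPM, and Olig1, Olig2 (30.6 CPM) and Tal1 fell, beside 6.67% of all genes higher and 7.75% lower. Tal1 was the factor of this list called in iHoxc6 (0.0684 CPM) and in iHoxc8 (0.218 CPM), lower in both. There 0.224% and 1.09% of all genes were called lower. The median of the list was 0.15 in iHoxc9, or 0.02 with Ptf1a at its bound and Ascl2, which is at the floor, left out.

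Of 11 genes known as proneural targets, 3 rose in iHoxc9 against control and none fell, with a median of 0.02. In iHoxc10 2 rose and 2 fell, with a median of -0.16. Of all genes, 6.95% were called higher and 7.13% lower in iHoxc9, and 6.67% and 7.75% in iHoxc10. Cbfa2t3, a corepressor gene, rose in all 4 lines, from 3.79 CPM in control neurons to between 7.67 CPM (iHoxc8) and 9.1 CPM (iHoxc10). Ebf3, a factor of neuronal differentiation, rose from 63.3 CPM to 145 CPM with Hoxc9 and 199 CPM with Hoxc10, and Cbfa2t2 rose in iHoxc9 from 75.4 to 129 CPM. In iHoxc10 Mfng, a modifier of Notch, fell from 79.2 to 46.9 CPM and Gadd45g from 30.0 to 18.2 CPM. The Notch ligand gene Dll1 was at 42.9 CPM in control and 38.3 to 43.4 CPM in the iHox groups, with no call.

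Of 9 relatives of the zinc finger members and genes that repress neuronal genes, Scrt1 rose in 3 lines, from 42.0 CPM in control to 73.2 in iHoxc6, 99.0 in iHoxc9 and 97.3 in iHoxc10, and it was at 59.7 CPM in iHoxc8 (adjusted p = 0.0424). St18, the Myt1 relative also called Myt3, rose in iHoxc9 from 19.2 to 65.8 CPM (log2 fold change 1.78, adjusted p = 0.000182), and Scrt2 rose in iHoxc10 from 80.4 to 144 CPM. Insm2, the paralogue of Insm1, was at 0.109 CPM or less in the 5 day 4 groups. Rest, the repressor of neuronal genes outside neurons, was at 6.56 CPM in control and 5.84 to 9.22 CPM in the iHox groups, with no call. In iHoxc9 and in iHoxc10, 2 of the 9 genes were called higher and none lower, beside 6.95% and 6.67% of all genes called higher. The median of the list was 0.29 in both iHoxc9 and iHoxc10.

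**Figure D4:**
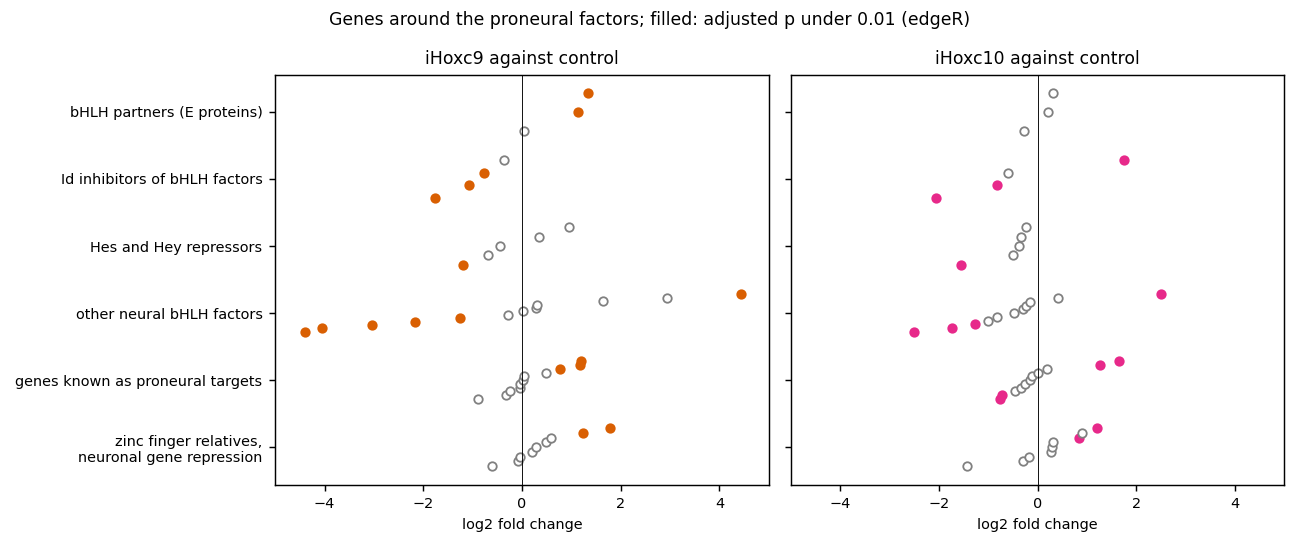
Log2 fold change against control in iHoxc9 (left) and iHoxc10 (right) for the genes of 6 lists; each point is 1 gene, filled where its adjusted p in edgeR is under 0.01, and genes without reads in a group or under 0.1 CPM in both are left out. In iHoxc9 the E proteins Tcf12 and Tcf4 lie to the right, at 1.34 and 1.13, and Id1 lies to the left, at -1.77.

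The genes that followed each member most closely were named by the Pearson correlation of log2(CPM + 1) over the 18 libraries among 14117 genes, as a description. These libraries share groups, lines and description codes, so the coefficients mostly repeat the differences between 6 groups. Myt1 was followed by Syt11 (r = 0.997), Celf3 (0.995) and Add2 (0.994), which rose with it between day2 and day 4. Neurog1 was followed by Cmtm7 (0.941), Slc39a14 (0.927) and Pknox2 (0.926), which were lowest in iHoxc9. For Neurog2 these were Antxr2 (0.903), Ppp1r14a (0.902) and Itga8 (0.877), and for Neurog3 Klhdc8a (0.971), C1qtnf3 (0.963) and Pde9a (0.954). Neurod1 was followed by Fgd4 (0.937), Bcl2 (0.931) and Smad5 (0.911), Neurod4 by Hey2 (0.917) and Chrna3 (0.888), and Insm1 by Palld (0.942), Parm1 (0.935) and Hunk (0.934). Among the members themselves, over the 15 day 4 libraries, Neurod1 lay closest to Neurod4 (r = 0.755) and Insm1 (0.738), Neurog2 closest to Neurod4 (0.692), and Neurog1 ran against Neurod1 (-0.672) and Insm1 (-0.668). The coefficient between Neurog2 and Neurog3 was 0.009. Over these 15 libraries alone the gene closest to a member was another one for Neurog1 (Serpinf1, 0.980), Neurog3 (Cd82, 0.951), Neurod1 (Zeb2, 0.966), Neurod4 (Impact, 0.952), Insm1 (Prrc1, 0.980) and Myt1 (Arhgef7, 0.925), and Antxr2 again for Neurog2 (0.926).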

How the data were processed

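Bulk polyadenylated RNA of 18 libraries (TruSeq Stranded, single-end 75 bp) was analysed. The deposited values are raw counts per gene: the authors aligned reads to mm10 with STAR 2.7.0c and counted them on RefSeq genes with featureCounts, and the strand setting is not given in the sources used here. The submitters' processing notes also name DESeq2 1.20.0 and Picard 2.8.2. Entrez IDs were matched to symbols for 25275 of 27179 genes. The totals of 24498630 to 33168533 counts per library limit detection to 0.0904 to 0.122 CPM at 3 counts.

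Groups were taken from the labels. All 18 libraries entered 1 edgeR fit (version 4.0.16, R 4.3.3; quasi-likelihood test, TMM factors, group as the design, Benjamini-Hochberg adjustment over 20944 genes, those counted at least 1 time in an induced line), and a gene was called at an adjusted p under 0.01, with a log2 fold change beyond 2 as an added threshold; 12 comparisons were made. SEs are the fold change divided by the root of the F statistic. On simulated data for iHoxc9 against control, 200 of 20944 genes, all with a mean of at least 1 CPM, had a true log2 fold change of 2. Of these 99% were recovered, with 3 other calls. Smaller changes, and changes of genes at lower levels, were not simulated, so this recovery does not apply to them. Levels per kilobase used the merged GENCODE exon length. Promoter windows were taken from RefSeq (GRCm38.p6). DESeq2 1.42.0, other scalings, filters, fits of the groups compared, the replicate block and leaving out each library were tried as alternatives.

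Replicate numbers were checked by the correlation of deviations from the group means. For iHoxc9 and iHoxc10 it was 0.579, 0.474 and 0.651 for numbers 1, 2 and 3, and for iHoxc6 and iHoxc9 it was 0.142, 0.215 and 0.117. Same-numbered libraries thus deviated together there, weakly for iHoxc6 and iHoxc9, and the labels do not state a pairing. In the other comparisons at least 1 value was 0.1 or lower. The paper describes independent differentiations; p-values measure the spread between these libraries.

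The named genes were the 9 members with every value, the induced Hox genes, up to 4 genes with the smallest adjusted p of each list and comparison (all genes of lists under 4), marker genes beside a result, and the 3 genes most correlated with each member, of which some are not reported here. Genes named for unchanged or low levels (Hes1, Dll1, Insm2, Rest, Neurod6) and Ptf1a were chosen after their values were seen. The members and lists were chosen with earlier results of these data known.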

Additional observations from a re-analysis of the deposited data

Results flagged for a closer look

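The level of the same gene differed between Hox lines at an adjusted p under 0.01 in edgeR in 11 cases. These are given as log2 fold changes between the induced lines, which equal the differences of their contrasts with the shared control. The line differs in all of them, and the description code also differs where iHoxc6 is compared. Neither can be told apart from the induced gene. Between iHoxc6 and iHoxc9 the cases were Neurog1 (2.82), Neurod1 (-1.67), Neurod4 (-1.51) and Insm1 (-1.23). Between iHoxc6 and iHoxc10 they were Neurog1 (1.62) and Neurog2 (1.42), each higher in iHoxc6. Between iHoxc9 and iHoxc10, which share a description code, they were Neurog1 (-1.19), Neurog2 (1.74), Neurod1 (1.22), Neurod4 (1.89) and Insm1 (0.996). For Neurog2 and Neurod4 the control mean lay between these lines: Neurog2 was at 99.2 ± 11.6 CPM in iHoxc9, 45.5 ± 7.09 CPM in control and 29.6 ± 7.55 CPM in iHoxc10, and Neurod4 at 45.7 ± 8.92, 26.6 ± 10.3 and 12.4 ± 3.25 CPM (SD, n = 3). Groups of 3 libraries are too small for a test of single outlying libraries.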

How the results depend on the processing

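Neurod2, whose fitted folds depend on groups at 0, was counted apart: it was called in 9 of 12 alternatives in iHoxc9 against day2, in 2 of 11 against control and in 2 of 12 against iHoxc10. Of the 53 differences of the other members with an unadjusted p under 0.05, none changed sign over 698 values from alternative settings; 9 lost a call in at least 1 alternative and 5 gained one. Of the 31 differences with a p of 0.05 or more, 12 changed sign under an alternative, and the text prints no fold change for these 31, some of which are drawn in the plot of fold changes. The number of members called stayed within 1.5 times in 151 of 170 alternatives. With a log2 fold change beyond 2 required as well, it was 2 in iHoxc6 against day2, 4 in iHoxc9 against day2, 2 in iHoxc10 against day2, 0 in iHoxc6, iHoxc8 and iHoxc10 against control, 3 in iHoxc9 against control, 1 in iHoxc6 against iHoxc9, and 0 in iHoxc6 against iHoxc10 and in iHoxc9 against iHoxc10. Beside these counts of 0 in edgeR, 4, 2, 5, 2 and 6 of the 9 members had an unadjusted p under 0.05 in iHoxc6, iHoxc8 and iHoxc10 against control, in iHoxc6 against iHoxc10 and in iHoxc9 against iHoxc10. DESeq2 called 2 members in iHoxc6 against control (Insm1 and Neurog3), a fit of only iHoxc8 and control called 0 (Insm1 at an adjusted p of 0.0113), and a filter of at least 10 counts in 3 libraries called 3 in iHoxc9 against iHoxc10 (without Neurog1 and Neurod1, at adjusted p of 0.0118 and 0.0137); the cause was not tested. Leaving out single libraries gave 2 to 3 members in control, 3 to 5 in iHoxc6, 2 to 3 in iHoxc8, 6 to 7 in iHoxc9 and 5 to 5 in iHoxc10 against day2. Against control it gave 1 to 1 in iHoxc6, 0 to 1 in iHoxc8, 4 to 6 in iHoxc9 and 2 to 4 in iHoxc10. It gave 3 to 4 for iHoxc6 against iHoxc9, 2 to 2 for iHoxc6 against iHoxc10 and 3 to 4 for iHoxc9 against iHoxc10.

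With the replicate block in the fit of all 18 libraries, 3, 5, 2, 6 and 5 members were called in control, iHoxc6, iHoxc8, iHoxc9 and iHoxc10 against day2, 1, 1, 5 and 3 in iHoxc6, iHoxc8, iHoxc9 and iHoxc10 against control, 4 and 2 in iHoxc6 against iHoxc9 and iHoxc10, and 4 in iHoxc9 against iHoxc10. It ended the calls for Neurod2 in iHoxc9 against day2 (adjusted p = 0.0107) and control (0.0303) and for Neurog1 in iHoxc9 against iHoxc10 (0.0123), and it changed no other call of a member. The block was also used in fits of only the groups whose same-numbered libraries deviated together, chosen after seeing the data. It called 6 members both for iHoxc9 against iHoxc10, Neurod2 being the added gene, and for iHoxc6 against iHoxc9. Leaving genes under 0.1 CPM in both groups out of the list medians, also chosen after seeing the data, moved that of the Hes and Hey genes in iHoxc9 to -0.44 and that of the other neural bHLH factors to 0.02 in iHoxc9 and -0.47 in iHoxc10. Depth limits Atoh1 and Neurod2, whose reads do not pass the 3-count limit in most groups, and the Neurog3 folds against day2, which rest on 3 reads.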
